A study of Homo sapiens with 2 samples.

Results

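The sites described here are the YAP-5SA peaks around 6 genes that are grouped here under the name WNT5 and alternative Wnt signalling. The genes are the ligands WNT5A and WNT5B, the receptors ROR1 and FZD1, the Wnt antagonist DKK1 and the secreted growth factor binding protein IGFBP3. A peak was taken as a member when its summit fell inside a fixed hg19 window set around one of these genes. This gave 9 peaks out of 9393 in the list (0.0958%), spread over 5 of the 6 windows. The data come from a ChIP-seq experiment in MCF10A, a human mammary epithelial line that the source label calls non-transformed and the cell type label calls a breast cancer line. The cells expressed Flag-tagged YAP-5SA, an active YAP in which the serines that LATS kinases phosphorylate are mutated, and were grown with horse serum, EGF, insulin, hydrocortisone and cholera toxin. Chromatin bound to the tagged protein was collected on Flag-M2 beads. There was 1 ChIP library and 1 input DNA library of the same line, with no replicate of either. The peak list of the ChIP library was analysed. Reads of the input, and cells without the transgene, were not analysed here, so no peak below can be set against a background library. The binding is that of an expressed, mutant protein, not of endogenous YAP.

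WNT5A and WNT5B are secreted ligands that mostly signal without beta-catenin, through Frizzled receptors and ROR co-receptors, and alter cell shape, polarity and migration. This branch has been described as an activator of YAP and its paralogue TAZ. YAP itself binds DNA through TEAD transcription factors, often at sites far from promoters, and DKK1, WNT5A and WNT5B have been described among its targets. A peak list holds no expression and does not link a site to a gene.

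Each peak has an interval, a summit and a height. The height is the score given by the authors at the summit, a whole number with no stated unit, and it is used here only to rank peaks within this list. Its median over the list was 24, with an interquartile range of 19 to 30. Distances are in kb between summits, or from a summit to the end of a window. The summit position was a multiple of 32 bp in 80.4% of the list and in 8 of the 9 members, so offsets of a summit within its interval are resolved only to about that step. With 1 library, no height or count has a spread between cultures, and no p-value is given. Intervals for densities are exact Poisson and those for shares exact binomial (Clopper-Pearson), at the 95% level. They cover counting error only and treat peaks as independent, which close neighbours are not. Where such intervals overlap, this does not show that the values are alike. Genes were not placed on hg19 here, so positions are given relative to the windows, and no peak is called promoter, intronic or intergenic.

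Among the ligands, the WNT5A window held no peak and the WNT5B window held 1 low peak. The WNT5A window ran from 55.40 to 55.62 Mb on chromosome 3. The nearest summit lay only 1.34 kb below its lower end, at 55398656, in an interval from 55398252 to 55398987 with a height of 31. A second summit of height 28 lay 15.7 kb below the end, and others of heights 21 and 32 lay 174 and 196 kb below it. All 4 summits within 250 kb of the WNT5A window were on this lower side. On the upper side the next summit was 669 kb away and had a height of 22. The summit-free stretch across WNT5A measured 889.9 kb. Of the 9370 gaps between neighbouring summits of the list, 7.05% were as long or longer, the median gap being 137 kb. That share counts gaps, and a long gap covers more positions than a short one. A fixed position thus falls in a gap this long more often than the 7.05% conveys. WNT5A is on the reverse strand of GRCh38, so the lower side is the one toward which it is transcribed. The protein-coding neighbours of WNT5A in the GRCh38 gene order are CACNA2D3 on the lower side and ERC2 on the upper side.

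An empty window was common. Windows of the same 220 kb width were laid end to end along the chromosomes, and 55.6% of 12413 held no summit. The count of 0 at WNT5A is thus what most such windows showed, and absence from a list of called peaks does not show that YAP-5SA was absent. The result also depended on where the window ended: with each end moved out by 50 kb, WNT5A had 2 peaks.

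The WNT5B window, from 1.67 to 1.81 Mb on chromosome 12, held 1 summit at 1714496. Its height of 16 was low, with 92.1% of the list as tall or taller, and on chromosome 12 it was reached by 434 of 472 peaks. Its interval, from 1714326 to 1715379, was by contrast broad. At 1054 bp it was the widest of the 9 member peaks, and 4.0% of the list was as wide or wider. The WNT5B summit was off centre, 356.5 bp below the middle of the interval, a distance reached by 0.649% of peaks in the list. Summits lie inside their intervals, so only broad intervals can reach this distance. The upper quartile of widths in the list was 709 bp, and the share of 0.649% is thus not separate from the width. A broad interval with the summit near an end was seen at no other member as clearly, and whether it holds more than 1 enrichment was not tested.

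WNT5B had 5 further summits within 250 kb of its window, all on the lower side. Their heights were 20, 41, 16, 21 and 26, at 86.5, 103, 142, 199.8 and 210.4 kb below the window, so the tallest peak near WNT5B lay outside the window. Above WNT5B the next summit was 564 kb past the window end, with a height of 39. WNT5B is on the forward strand, so here the lower side is the upstream one. FBXL14 is the nearest coding gene on that side in GRCh38 and ADIPOR2, an adiponectin receptor, on the other. Of windows of 140 kb, 32.3% of 19472 held at least 1 summit, so a single peak at WNT5B is not rare in this list.

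The ligands had in common that their close neighbours lay on the lower side only. They differed in their gene strand, so these neighbours lay on the downstream side of WNT5A and the upstream side of WNT5B.

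**Figure D1:**
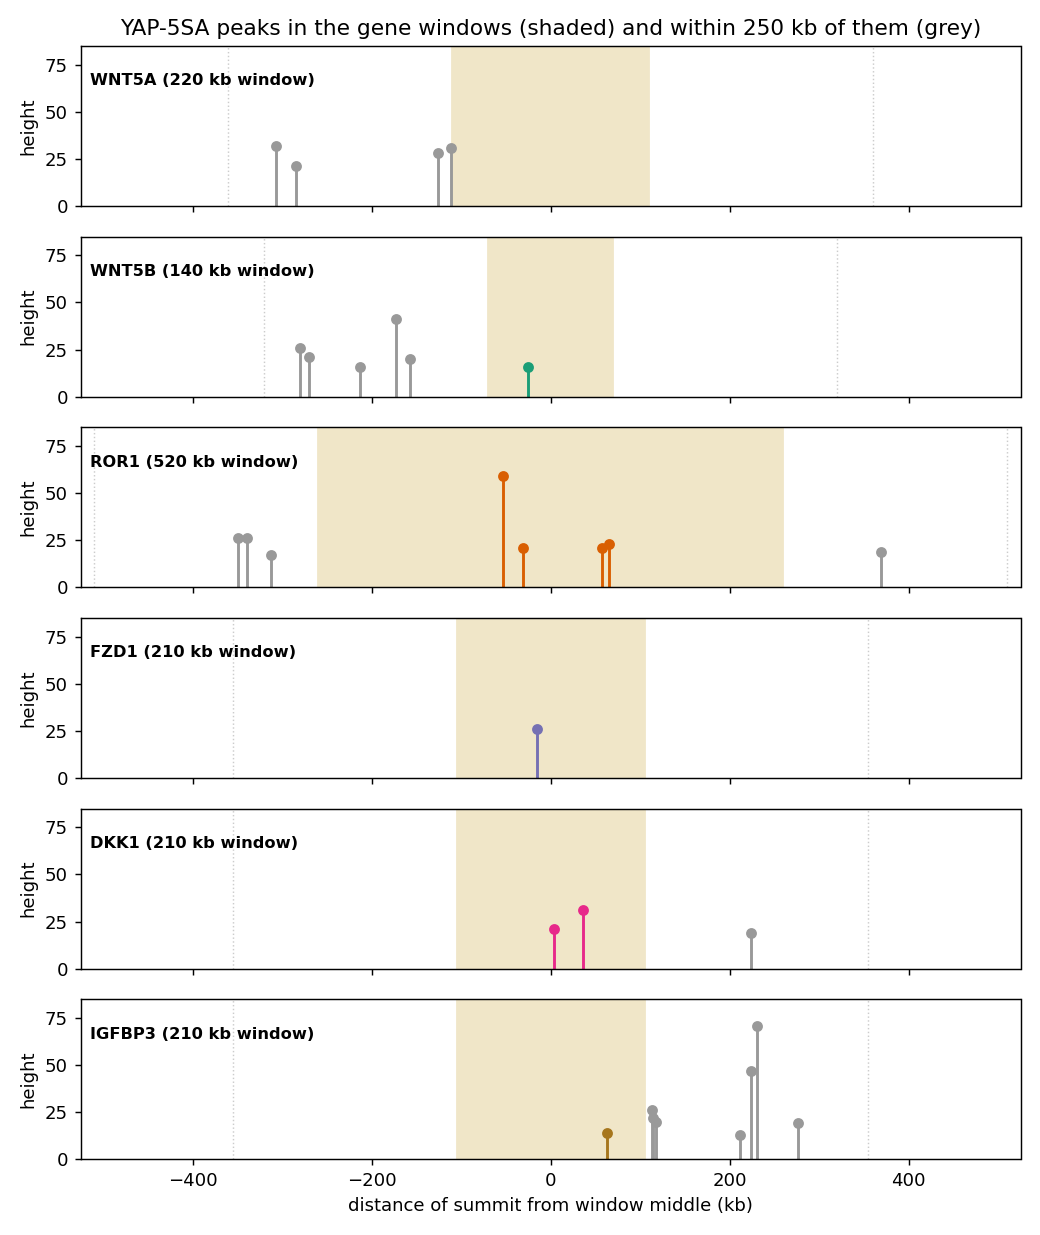
Each panel plots the peaks around 1 gene as stems, with the distance of the summit from the middle of the gene window in kb on the x axis and the height (authors' score) on the y axis. Shading marks the window, coloured stems are the 9 member peaks, grey stems are peaks within 250 kb of the window and dotted lines mark that limit. The tallest stem inside a window is that of ROR1 at 59 and the tallest outside is 125 kb above the IGFBP3 window at 71.

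Of the receptors, ROR1 had the most peaks in its window and the tallest of the 9. ROR1 is a receptor tyrosine kinase-like protein that binds WNT5A, and its window, from 64.18 to 64.70 Mb on chromosome 1, is the widest of the set at 520 kb. It held 4 summits, at 64386336, 64409760, 64497056 and 64505472, with heights of 59, 21, 21 and 23. The first of these stood far above the other 3, which all lay under the median of the list. A height of 59 or more was reached by 101 peaks of the list (1.08%) and by 10 of the 1009 peaks of chromosome 1. Its interval, from 64385923 to 64386809, was 887 bp wide, and 8.90% of the list was as wide. Its summit lay 30.0 bp from the interval's middle, within the 32 bp step of summit positions.

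The ROR1 peaks were arranged as 2 pairs. The tall summit and that of height 21 were 23.4 kb apart. The summits of heights 21 and 23 were 8.42 kb apart, the closest neighbours among the member peaks, and 87.3 kb separated the pairs. The nearest summits outside the 4 were 258 kb before the first and 303 kb after the last. All 4 lay between 39.7% and 62.6% of the way along the window. Since ROR1 is a long gene, a window around it gives more room for peaks: 15.4% of 5279 windows of 520 kb held 4 or more summits. A peak as tall as 59 was found in 1.84% of those windows, or 97 of them. Per Mb, the ROR1 window had 7.69 peaks (2.10 to 19.7), against 4.50 on chromosome 1 as a whole, a value inside that interval.

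FZD1, a seven-pass Frizzled receptor for Wnt ligands, had 1 peak in a window from 90.79 to 91.00 Mb on chromosome 7. Its summit at 90879328 lay 15.7 kb below the middle of the window and had a height of 26, close above the median of the list, with 41.2% of peaks as tall or taller. The interval from 90879170 to 90879590 was the narrowest of the members, at 421 bp, and 93.5% of the list was as wide or wider. The FZD1 peak was isolated. The summit before it was 671 kb away and the one after it 408 kb away, and gaps as long made up 11.1% and 22.5% of all gaps. These shares too count gaps and not positions. No other member had an empty surround of 250 kb on both sides of its window. At least 1 summit was found in 42.9% of 13006 windows of 210 kb, so FZD1 did not stand apart by its count. The GRCh38 neighbours of FZD1 are CDK14, a cyclin-dependent kinase gene on the lower side, and MTERF1 on the upper side.

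The tallest peaks of the receptors had heights of 59 and 26, a difference to which no error can be attached. The counts of 4 and 1 come from windows of unequal width. Per Mb, FZD1 had 4.76 peaks (0.121 to 26.5), and this interval overlaps that of ROR1.

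DKK1 encodes a secreted antagonist that blocks beta-catenin signalling at LRP co-receptors. Its window, from 53.97 to 54.18 Mb on chromosome 10, held 2 summits of heights 21 and 31. The lower of these, at 54079088 in an interval from 54078790 to 54079326, lay 4.09 kb above the middle of the window, nearer to the middle than any other member. The taller lay 32.7 kb further up, at 54111776, in an interval from 54111581 to 54112368. Its height was reached by 23.6% of the list and by 105 of the 417 peaks of chromosome 10, and that of the first by 67.2% of the list. The taller was also the wider, at 788 bp against 537 bp, and its summit lay 198.5 bp below the interval's middle, as far as in 4.71% of the list.

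The surroundings of DKK1 were sparse. Before its first summit no other was listed for 1992 kb, the longest gap beside a member peak, and 1.57% of gaps were as long. As at WNT5A, this share counts gaps, and a fixed position falls in or beside a gap this long more often than it conveys. Within 250 kb outside the window there was 1 summit, of height 19, at 119 kb above it. At 210 kb, 17.1% of windows held 2 or more summits. DKK1 lies between PRKG1 and MBL2 in the GRCh38 gene order and is transcribed toward higher coordinates.

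The DNA of the peaks was not read, because no hg19 genome was used here. The promoters of the 6 genes were available as RefSeq sequences on GRCh38.p14, from 250 bases before to 50 bases after each annotated start. All 6 genes matched, with 2 start sites each for WNT5A and WNT5B and 1 for each of the others, giving 8 promoters. They were searched on both strands for the TEAD-type M-CAT element CATTCCA, its core CATTCC, the AP-1 element TGANTCA and the TCF/LEF element CTTTGAT. Only these letters were searched, with N standing for any base, so variants of an element would not be found. The core lies within M-CAT, so every M-CAT match is also a core match. Only the DKK1 promoter had a match, a single core on the reverse strand that reads GGAATG on the forward strand, from 50 to 45 bases before the start. The DKK1 bases before the start are shown because they hold this match, with the core in capitals (GRCh38.p14, forward strand, chr10:52314031-52314280).
DKK1: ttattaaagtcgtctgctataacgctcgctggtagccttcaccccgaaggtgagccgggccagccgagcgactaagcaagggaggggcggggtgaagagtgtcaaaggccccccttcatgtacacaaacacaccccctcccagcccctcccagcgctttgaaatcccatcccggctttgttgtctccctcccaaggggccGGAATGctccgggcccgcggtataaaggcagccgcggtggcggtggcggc

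Of all 35116 promoters in that table, 14.0% held the core, 4.18% the M-CAT element, 7.71% the AP-1 element and 2.62% the TCF/LEF element. A core in 1 of 8 promoters is near that background. The match is a description of letters in the DKK1 promoter, and whether either DKK1 peak covers it was not determined.

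IGFBP3, which binds insulin-like growth factors outside the cell, had the lowest of the 9 peaks within its window, and the tallest peak within 250 kb of any of the windows lay 125 kb past its end. The window ran from 45.85 to 46.06 Mb on chromosome 7. Its only summit, at 46017920 in an interval from 46017721 to 46018287, had a height of 14, and 97.0% of the list and 425 of the 440 peaks of chromosome 7 were as tall or taller. It lay 62.9 kb above the middle of the window, further toward an end than any other member in share of the window (80.0% of the way along).

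Above the window, 7 more summits followed within 250 kb, against none below it. The first 3 lay 8.06, 8.93 and 12.7 kb past the end of the IGFBP3 window, within 4.67 kb of each other, with heights of 26, 22 and 20. The next was a low summit of height 13 at 107 kb. Then came summits of heights 47 and 71 at 118.8 and 125 kb past the end, 6.37 kb apart, and a last one of height 19 at 171 kb. The summit at 46185184, in an interval from 46184855 to 46185560, was the taller of this pair. A height of 71 was reached by 24 peaks of the list (0.256%) and by 3 of the 440 on chromosome 7. Below IGFBP3 the nearest summit was 865 kb from the window. IGFBP3 is on the reverse strand, so the side with the peaks is its upstream side. In the GRCh38 gene order IGFBP1, a related binding protein, lies on the lower side and TNS3, which codes for a tensin of focal adhesions, on the upper side. The tall summits were not assigned to any of these genes.

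Moving each end of the IGFBP3 window out by 50 kb raised its count from 1 to 4, and keeping only the central 50% of the window left 0. In windows of 210 kb, 42.9% held at least 1 summit, and 42.1% held a summit as tall as 14 or taller.

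**Figure D2:**
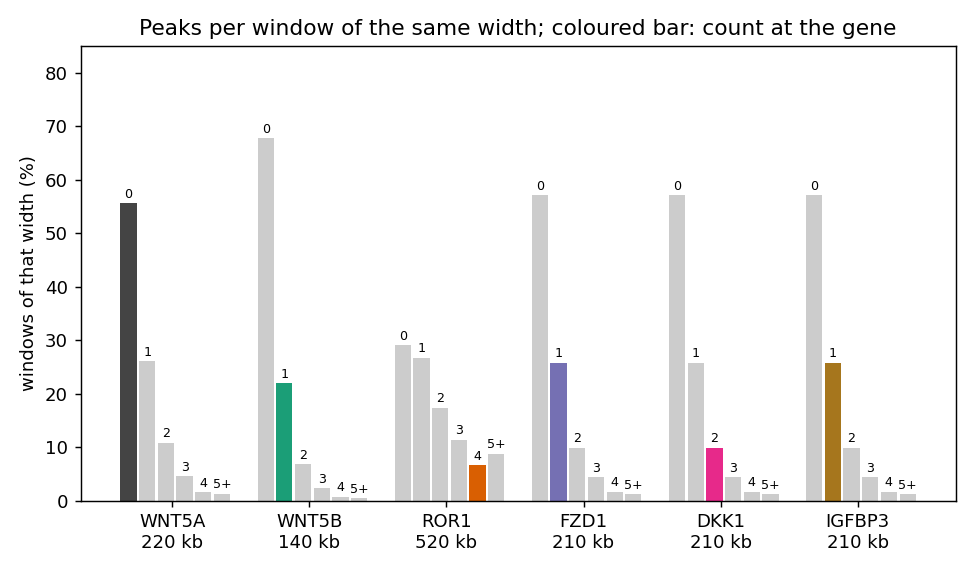
For each gene, bars give the percentage of end-to-end windows of the same width that held 0, 1, 2, 3, 4 or at least 5 summits (number above each bar), and the coloured bar is the number found in the gene's window. Counts at WNT5A, WNT5B, FZD1 and IGFBP3 fall on the common values of 0 and 1, while 4 peaks at ROR1 fall on a bar of 6.63% and 2 at DKK1 on a bar of 9.92%. A bar holds only the windows with exactly that count. At least 4 summits were held by 15.4% of windows of the ROR1 width, and at least 2 by 17.1% of windows of the DKK1 width.

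By the tallest peak in its window, the genes were ordered as ROR1 (height 59), DKK1 (31), FZD1 (26), WNT5B (16) and IGFBP3 (14), with no peak at WNT5A. Without a replicate it cannot be said which neighbours in this order differ. The windows were 140 kb (WNT5B) to 520 kb (ROR1) wide, and a wider window has more room for a tall peak. Among windows of the same width, a summit as tall or taller was found in 1.84% for ROR1, 14.0% for DKK1, 22.4% for FZD1, 30.5% for WNT5B and 42.1% for IGFBP3. Taken with the peaks within 250 kb outside the windows the order would change, as IGFBP3 then had 71, WNT5B 41 and WNT5A 32, against 59 at ROR1, 31 at DKK1 and 26 at FZD1. No share of windows of the same width was computed for these longer stretches.

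Over all 9 member peaks the median height was 21, with an order-statistic interval (coverage 96.1%) of 16 to 31, against 24 for the list. Of the 9, 3 were higher than the list's median, as were 45.5% of all peaks. There were 5 inside the interquartile range of the list, 2 below it (WNT5B and IGFBP3) and 2 above it (the taller DKK1 peak and the first ROR1 peak). A single peak, that of ROR1, had a height of 40 or more, which is 11.1% of members (0.281% to 48.2%) against 8.67% of the list. Without the ROR1 window the tallest member was the DKK1 peak at 31.

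**Figure D3:**
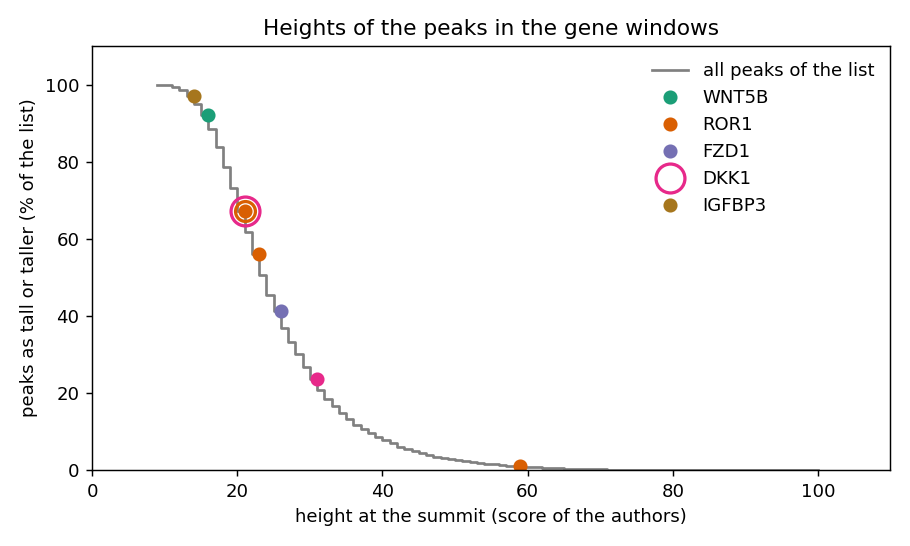
The grey steps give the percentage of all 9393 peaks whose height (x axis, authors' score) is at least the value shown, and points mark the member peaks on it, nested rings standing for members of equal height. Most members sit on the steep middle of the curve at heights of 21 to 31, with ROR1 alone in the tail at 59 and WNT5B and IGFBP3 at the low end. WNT5A has no point.

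Widths ran from 421 bp at FZD1 to 1054 bp at WNT5B, with a median of 644 bp against 611 bp for the list, and 5 of the 9 were wider than that. The tallest members, at ROR1 (height 59, 887 bp) and DKK1 (31, 788 bp), were also wide. The WNT5B peak was the widest and the second lowest, and the FZD1 peak was the narrowest with a height above the list's median. Another summit lay at most 10 kb away for 2 of the 9, the closer ROR1 pair (22.2%, 2.81% to 60.0%), as it did for 19.5% of the list.

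**Figure D4:**
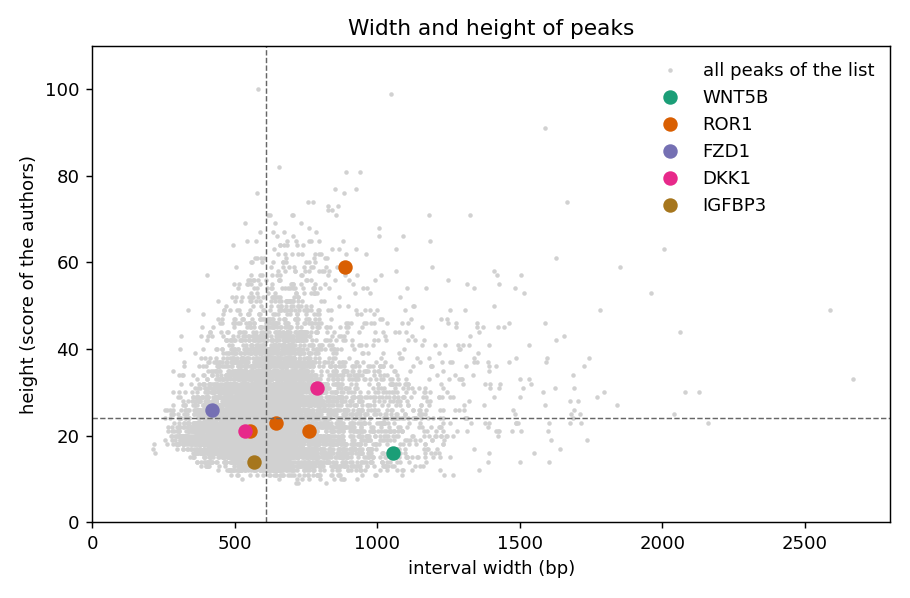
Every peak of the list is a grey dot at its interval width in bp (x axis) and height (y axis, authors' score), with the member peaks in colour and dashed lines at the medians of 611 bp and 24. The tall ROR1 peak is broad and tall, and the WNT5B peak is broad and low.

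The windows together covered 1.51 Mb and had 5.96 peaks per Mb (2.73 to 11.3). The whole list had 3.45 per Mb, which gives a ratio of 1.73 (0.789 to 3.28) whose interval includes 1. At the density of the list 5.21 peaks would lie in this length. Without ROR1, the 5 remaining peaks gave 5.05 per Mb. The central 50% of each window held 8 of the 9 summits, or 10.6 per Mb (4.57 to 20.9), and the outer parts held the IGFBP3 summit alone, or 1.32 per Mb (0.0335 to 7.38). These intervals overlap, and 4 of the 8 central summits were those of ROR1. Outside, the first 50 kb beyond the windows held 5 summits, or 8.33 per Mb (2.71 to 19.4), at WNT5A and IGFBP3. The full 250 kb beyond held 21, or 7.0 per Mb (4.33 to 10.7), of which 3 had a height of 40 or more, at WNT5B and IGFBP3. The intervals of the densities inside and outside the windows overlap. The interval for the full 250 kb beyond lay above the 3.45 per Mb of the list, while that for the windows included it. Of the 21 summits beyond the windows, 7 were those near IGFBP3, and 3 of these lay within 4.67 kb of each other. The interval treats such neighbours as independent, and the density of the list covers whole chromosome spans, not only the surroundings of genes. No excess over the list can therefore be drawn from it. The heights and densities were not corrected for DNA copy number, whose part was not tested.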

How the data were processed

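Reads were aligned with BWA 0.6.1 and peaks called with MACS on hg19, per the submitters' processing notes. Not given in the sources used here: the version of MACS, its threshold and whether the input served as control. The deposited file has a summit track, with the authors' score for each summit, and an interval track, per the file headers. They were joined by order, and 100% of summits lay inside their interval. Sequencing depth is unknown, as the authors' file gives no read counts.

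Members were summits inside hg19 windows named for the 6 genes. The members, lists and windows were chosen with earlier results of these data known. All 6 genes and every peak of their windows are named, and of other genes only the nearest coding neighbours. Positions are 1-based. Length for densities was the span of summits on each chromosome less its longest summit-free stretch, and windows wholly inside that stretch were left out of the end-to-end windows. Neighbours and strands come from RefSeq GRCh38.p14, by order only. Other Wnt genes were not analysed here. Counting was tested on simulated data and recovered in 20 of 20 sets. Python 3.11.15, numpy 2.4.6, pandas 2.3.3, scipy 1.17.1 and matplotlib 3.10.9 were used.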

Additional observations from a re-analysis of the deposited data

How the results depend on the processing

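No paired analysis was possible because the ChIP and the input each had a single library, which also left no replicate to omit. Restriction to peaks higher than the median of the list lowered the 9 member peaks to 3 and the density from 5.96 to 1.99 per Mb, by construction. Windows widened by 50 kb at each end held 14 peaks, or 6.64 per Mb. Widening by 200 kb, chosen after seeing the data, gave 29, or 7.42 per Mb. Leaving out the ROR1 window gave 5 peaks and a share of tall peaks of 0%, since that window holds the only tall one. The central 50% of the windows gave 10.6 per Mb. The median height rose to 31 under the restriction to higher peaks, again by construction. It lay between 21 and 22.5 under the other alternatives. Placing peaks by interval overlap, or counting peaks at most 200 bp apart as 1, left the 9 peaks at 9. Of 36 recomputed counts for single windows, 25 stayed within 1.5 times. The M-CAT element matched 0 promoters and its core 1, with 0 for M-CAT when only the bases before the start were searched. The unknown read depth limits all of these values.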
